A study of Mus musculus with 3 samples.

Results

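The miRNAs described here come from the imprinted Dlk1-Dio3 region, a stretch of mouse chromosome 12 that holds a large miRNA cluster. Members were picked by miR number alone, with any arm or letter, from 51 numbers assigned to the region. Of these numbers 31 had a row, which gave 48 mature miRNAs from 34 hairpins among the 899 miRNAs listed in the tables. The rule itself uses no measured value, but it was set with earlier results of these data known.

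In this region the paternal chromosome expresses the protein-coding genes Dlk1, Rtl1 and Dio3, while the maternal chromosome expresses long noncoding RNAs (Meg3, the strand opposite Rtl1, Rian and Mirg) from which the miRNAs are cut. Most of these miRNAs are abundant in embryo, placenta and brain, and Meg3 and its miRNAs are known to help maintain blood stem cells of the mouse fetal liver. The miRNAs that lie opposite Rtl1, among them miR-127, miR-136, miR-431 and miR-433, match its transcript perfectly and lower it.

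Small RNA was sequenced from cultured bone marrow of C57BL/6 mice of 11 weeks, with 1 library per group. Mature osteoclasts (mOC), the fused cells that resorb bone, were made with M-CSF at 30 ng/mL and RANKL at 100 ng/mL over at least 72 h. Preosteoclasts (pOC) received the same factors for 24 h. Both were derived from bone marrow macrophages (BMM), which had been grown with M-CSF at 50 ng/mL for 72 h. Every group had a first culture of 24 h. Cultures of every group were given alendronate, a bisphosphonate drug, at 500 µM for 12 h. The number of mice is not given. The title speaks of exosomes and the treatment text of apoptotic bodies, so the fraction sequenced is not settled by the labels. No column carries the name BMM. The authors' comparisons use a library headed R, which the labels do not spell out, and R is treated here as a library of unknown origin. With 1 library a group there is no test between conditions, and every interval below covers counting error alone.

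The mOC library held 7017707 counts and the pOC library 5430426. Levels are given in CPM, the count divided by the library total and multiplied by 1000000. A count of 0 allowed a level of at most 0.427 CPM in mOC and 0.552 CPM in pOC, from a limit of 3 counts. The 4 miRNAs of myeloid cells looked up (both arms of miR-223 and miR-142a) were all detected and summed to 9233 CPM in mOC and 5480 CPM in pOC. As they were detected in both libraries, their presence does not check the labels pOC and mOC.

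Sequences are shown for the 12 members with at least 50 counts in a library, since the comparisons rest mainly on them. Of these 12, 8 reached 50 counts in pOC alone, so the selection leans towards members lower in mOC and no tally over the 12 is independent of it. Each is the mature RefSeq sequence of GRCm38.p6, 5′ to 3′, in the order of the hairpins along the cluster. Capitals mark the seed, bases 2 to 8, which sets most of the pairing with target mRNAs.
miR-493-5p: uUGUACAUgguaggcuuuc
miR-127-3p: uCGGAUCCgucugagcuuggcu
miR-136-3p: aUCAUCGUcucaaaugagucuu
miR-379-5p: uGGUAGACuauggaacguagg
miR-411-5p: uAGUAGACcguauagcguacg
miR-299a-3p: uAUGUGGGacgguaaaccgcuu
miR-494-3p: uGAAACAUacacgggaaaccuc
miR-381-3p: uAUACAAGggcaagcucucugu
miR-409-3p: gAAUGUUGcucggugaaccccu
miR-412-5p: uGGUCGACcagcuggaaaguaau
miR-369-3p: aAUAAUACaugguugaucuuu
miR-410-3p: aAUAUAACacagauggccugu

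These 12 miRNAs carried 12 different seeds, so what they share is a locus and not a seed. Over the 44 members with a RefSeq mature entry there were 42 seeds. The 2 shared seeds were those of miR-379-3p with miR-411-3p and of miR-299a-3p with miR-299b-3p, and no listed miRNA outside the cluster had either of them. The sequence of miR-299b-3p lies whole within miR-299a-3p, so the counts of this pair cannot be told apart with certainty. miR-381-3p differed by 2 edits from miR-300-3p (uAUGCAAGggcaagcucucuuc, seed in capitals), and reads of the pair could be shared as well. No other of the 12 came within 3 edits of another listed miRNA with a sequence. The median GC content was 45.5% over members and 50.0% over the 793 listed miRNAs with a sequence. The most abundant member, miR-369-3p, had 23.8%. Among other miRNAs with at least 10 counts, the 186 at or under the members' median GC content had a median log2 ratio of mOC over pOC of 0.39, and the 291 above it had -0.07. The part of base composition in the results was not tested.

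The whole cluster was a small part of both libraries. Its 48 miRNAs summed to 2522 counts in mOC, 0.0359% of the library (95% exact binomial interval 0.0345 to 0.0374%). In pOC they summed to 5287 counts, 0.0974% (0.0948 to 0.100%). The summed level was thus 359 CPM in mOC and 974 CPM in pOC, 2.71-fold lower in mOC (2.58 to 2.84-fold). Most of it was a single miRNA. In human cells at rest, miR-369-3p is known to bind the AU-rich element of the TNF mRNA and to raise its translation. Here miR-369-3p had 1818 counts in mOC and 3396 in pOC, which made it the miRNA of rank 123 in mOC and of rank 86 in pOC among all 899. It supplied 72.1% of the cluster's counts in mOC (70.3 to 73.8%) and 64.2% in pOC (62.9 to 65.5%). Without it, the remaining members summed to 704 counts in mOC and 1891 in pOC, 3.47-fold lower in mOC (3.18 to 3.79-fold).

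**Figure D1:**
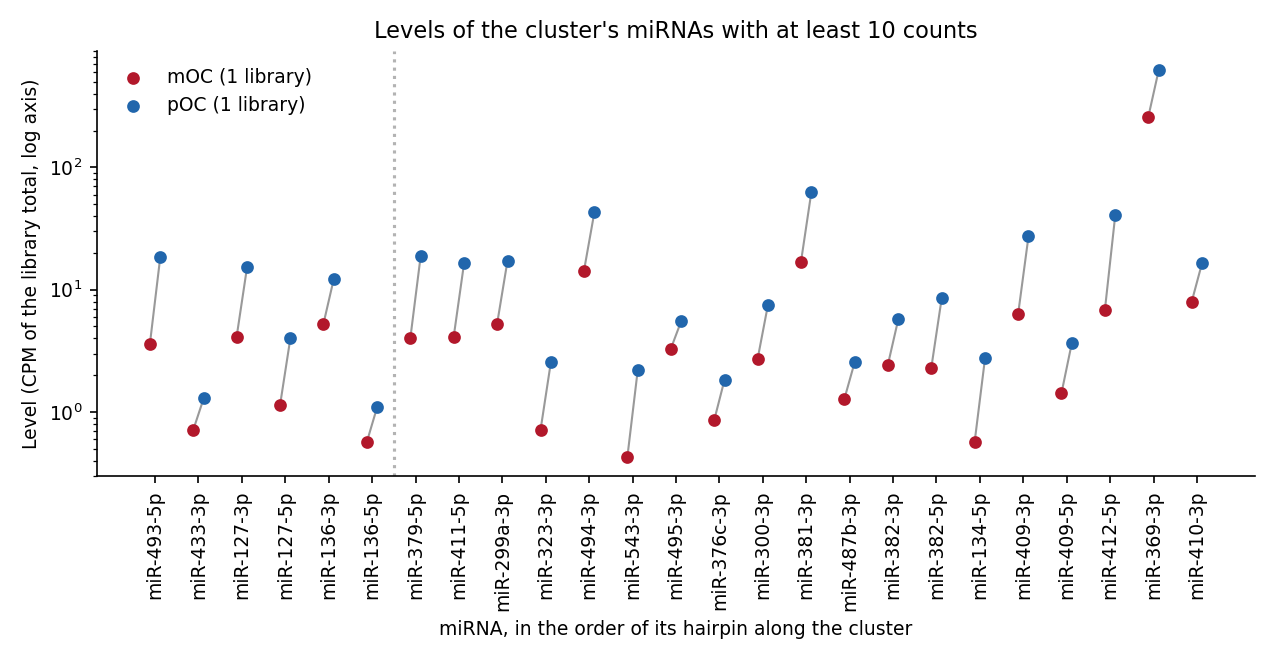
Level of the 25 cluster miRNAs with at least 10 counts over both libraries, in CPM of the library total on a log axis, with mOC in red and pOC in blue and 1 library each. The dotted line marks the gap in the cluster between miR-136 and miR-379. Each red point lies under its blue point, and miR-369-3p stands far above the rest at 259 CPM in mOC and 625 CPM in pOC.

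Comparing mOC with pOC asks which members differ between the libraries labelled as the late and the early stage of osteoclast formation. Of the 48 members, 25 had at least 10 counts over both libraries. This minimum, set alike for all miRNAs, can be met through pOC alone, which favours members lower in mOC. At least 2-fold lower in mOC were 20 of these 25, against 15.2% of the 560 miRNAs of any kind with that minimum, and all 20 had a counting interval that excluded equal levels. At least 2-fold higher were 0 of 25, against 10.2% of the 560. A log2 ratio below 0 was found for all 25, against 47.1% of the 560. The median log2 ratio of mOC over pOC was -1.65 for the members, with a range from -2.56 to -0.73, and 0.04 for all 560. Before each ratio was taken, 1 count was added, in proportion to library size. In bulk samples like these, fewer cells of a type and less RNA per cell cannot be told apart, and the fraction sequenced is not settled.

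**Figure D2:**
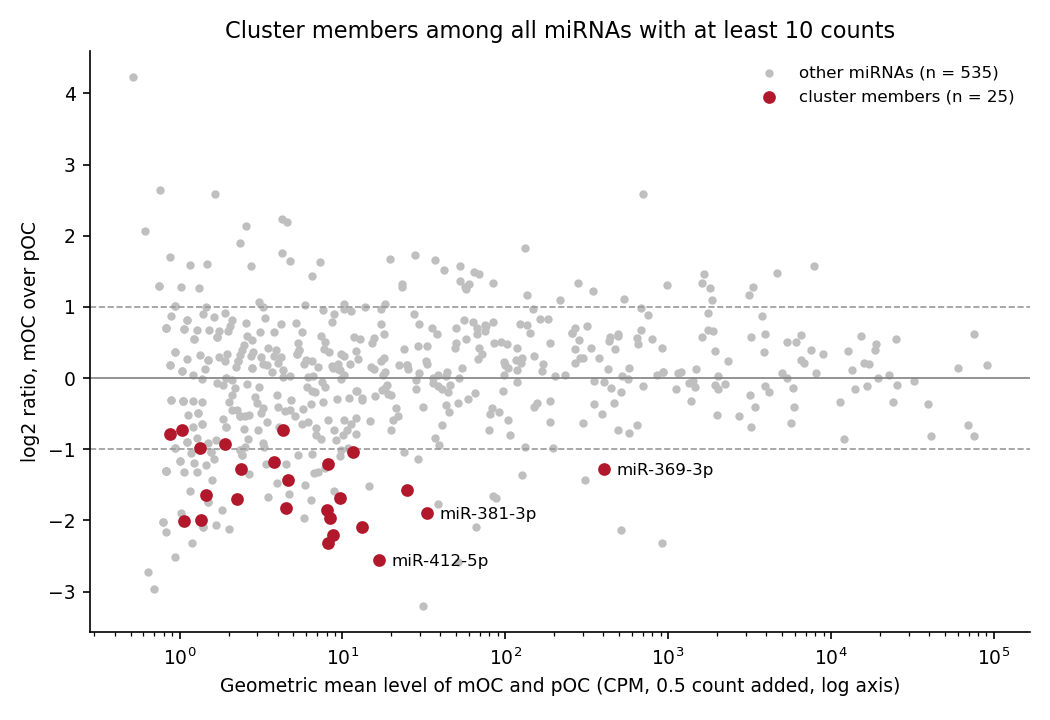
Log2 ratio of mOC over pOC against the geometric mean level of both libraries in CPM (log axis, 0.5 count added), for 25 cluster members in red and 535 other miRNAs in grey, all with at least 10 counts. Dashed lines mark 2-fold differences. The red points lie between -2.56 and -0.73, below 0 throughout.

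The first hairpins of the cluster lie between Meg3 and Rian. miR-493-5p had 25 counts in mOC and 100 in pOC, a log2 ratio of -2.32 (interval -3.06 to -1.73). Its hairpin (GRCm38, chromosome 12, 109580233 to 109580315, plus strand) lies between annotated genes. The next hairpins, from Mir431 to Mir136, lie opposite an exon of Rtl1, which is read from the minus strand. miR-127-3p, the best known of them, had 29 counts in mOC and 83 in pOC (-1.85, interval -2.55 to -1.26). Its other arm, miR-127-5p, had 8 counts in mOC and 22 in pOC (-1.70). miR-136-3p had 37 counts in mOC and 67 in pOC (-1.20, interval -1.85 to -0.63). The remaining miRNAs opposite Rtl1 were near the floor. miR-433-3p had 5 and miR-136-5p 4 counts in mOC, against 7 and 6 in pOC, and both intervals held equal levels. miR-431-5p and miR-431-3p had 1 count each in mOC and 2 and 1 in pOC. Further on, in an intron of Rian, miR-370-3p had 0 counts in mOC and 5 in pOC, with a counting interval that starts at 1.18-fold lower in mOC.

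After a gap of 90.7 kb without a listed member, the cluster continues with the dense array from Mir379 to Mir410. miR-379-5p, from the first hairpin of the array (chromosome 12, 109709060 to 109709125, plus strand, between annotated genes), had 28 counts in mOC and 103 in pOC (-2.20, interval -2.91 to -1.63). Its neighbour miR-411-5p had 29 in mOC and 90 in pOC (-1.96, interval -2.66 to -1.39). Both have the 5p arm as the main product, unlike most hairpins of the cluster. miR-299a-3p had 37 counts in mOC and 94 in pOC (-1.69, interval -2.31 to -1.15). miR-494-3p had 100 in mOC and 233 in pOC (-1.58, interval -1.94 to -1.25). All 4 of these pairs of counts were lower in mOC by more than the counting error allows.

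In the middle of the array, miR-381-3p was the second most abundant member, with 119 counts in mOC and 344 in pOC (-1.89, interval -2.21 to -1.60). miR-300-3p, its near copy, had 19 in mOC and 41 in pOC (-1.43). miR-495-3p differed least of the 25, with 23 counts in mOC and 30 in pOC (-0.73), and its interval from -1.60 to 0.08 held equal levels. miR-376c-3p (-0.98) and miR-487b-3p (-0.92) had fewer than 15 counts in either library, and their intervals held equal levels too. The small levels of miR-323-3p, miR-543-3p and miR-134-5p, the last a regulator of dendritic spines in neurons, gave log2 ratios of -1.65, -2.01 and -2.00 on 3 to 5 counts in mOC and 12 to 15 in pOC. The arms of Mir382, miR-382-5p and miR-382-3p, stood at -1.82 and -1.18.

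The end of the array shows how far members differ among themselves. Mir409, Mir412, Mir369 and Mir410 lie within 638 bases, in exons or introns of the long noncoding RNA Mirg. miR-412-5p (hairpin at chromosome 12, 109743289 to 109743368) had 48 counts in mOC and 223 in pOC, the lowest log2 ratio of the 25 at -2.56 (interval -3.07 to -2.13). miR-409-3p had 44 in mOC and 148 in pOC (-2.09, interval -2.64 to -1.63). In contrast, miR-369-3p (hairpin at 109743418 to 109743496) stood at -1.27 (interval -1.35 to -1.19) and miR-410-3p, with 56 counts in mOC and 90 in pOC, at -1.04 (interval -1.56 to -0.56). The interval of miR-412-5p did not meet that of miR-369-3p or of miR-410-3p, although their hairpins are neighbours. Shares within the cluster, which no scaling of the libraries can alter, showed the same: miR-412-5p made up 1.90% of the members' counts in mOC (1.41 to 2.52%) and 4.22% in pOC (3.69 to 4.79%). miR-410-3p made up 2.22% in mOC (1.68 to 2.87%) and 1.70% in pOC (1.37 to 2.09%), a difference within counting error.

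**Figure D3:**
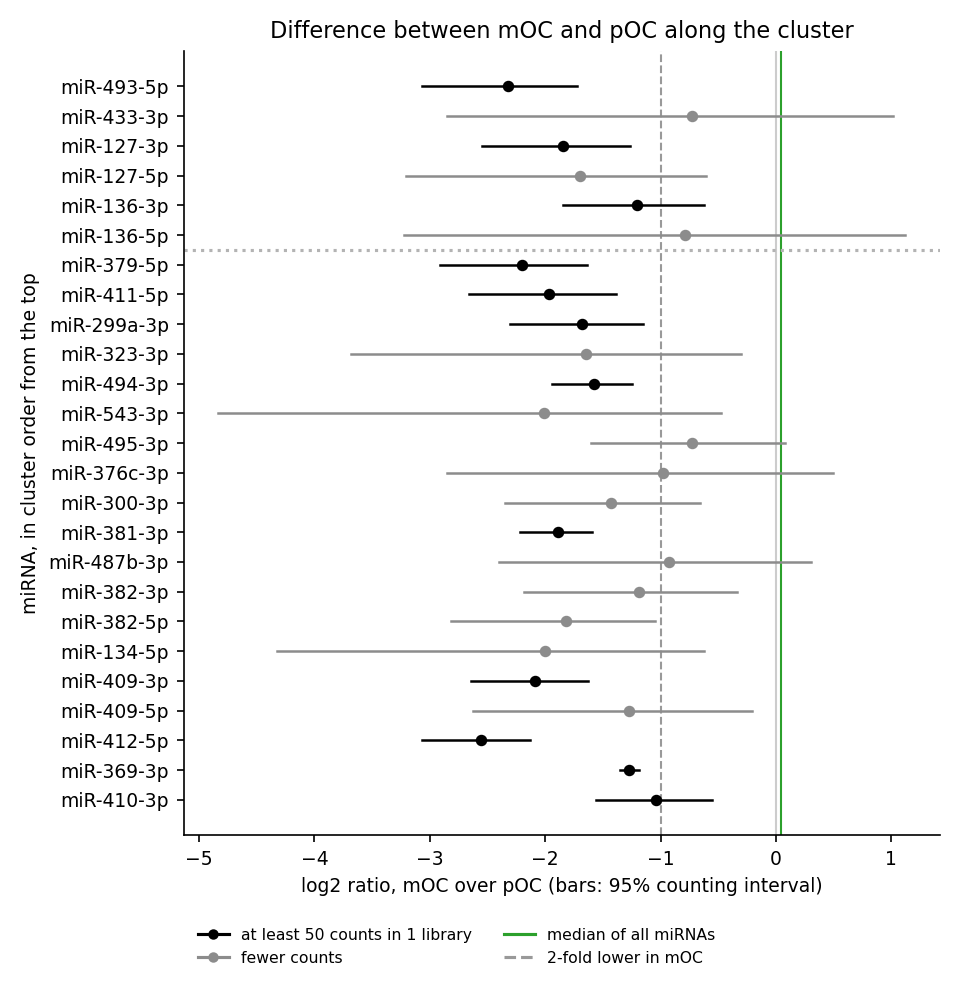
Log2 ratio of mOC over pOC with its 95% counting interval for the 25 members with at least 10 counts, in cluster order from the top. Members with at least 50 counts in 1 library are black and the others grey, the green line is the median of all miRNAs (0.04), the dashed line marks 2-fold lower and the dotted line the gap in the cluster. The 12 black points lie between -2.56 and -1.04, and 5 grey intervals cross 0.

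By position, 4 of the 6 members with at least 10 counts on the Meg3 side of the gap were 2-fold lower in mOC, with a median of -1.45. In the array from Mir379 on it was 16 of 19, with a median of -1.65. Among all 560 miRNAs with at least 10 counts, 15.2% were 2-fold lower in mOC. The summed counts were 110 in mOC and 293 in pOC on the Meg3 side, 3.44-fold lower in mOC (2.76 to 4.33-fold), and 2412 in mOC and 4994 in pOC in the array, 2.68-fold lower (2.55 to 2.81-fold). The array's sum is mostly miR-369-3p. Since arms of a hairpin share a precursor, they were also summed: of 21 hairpins with at least 10 counts, 17 were 2-fold lower in mOC, and all 21 had a log2 ratio below 0. By arm, 8 of 9 5p members with that minimum were 2-fold lower in mOC, with a median of -1.96. Of the 3p members it was 12 of 16, with a median of -1.35. No share was worked out over all summed hairpins or over all 5p or 3p miRNAs. The counts by hairpin and by arm therefore have no like share beside them.

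The other 23 members had under 10 counts over both libraries and summed to 23 counts in mOC and 48 in pOC. Of these 16 had the higher level in pOC, 6 in mOC, and miR-376a-5p had no count in either. miR-431-3p, miR-494-5p, miR-485-3p and miR-154-3p had equal counts in both libraries. They fall among the 16 only because the pOC total is smaller. No share over all miRNAs with so few counts was worked out. Members without a count numbered 9 in mOC and 4 in pOC. The highest count among those at 0 was the 5 of miR-370-3p in pOC, and in the other direction 2 counts in mOC, for miR-411-3p and miR-376c-5p. Among the 23, the counting interval excluded equal levels for miR-370-3p and for miR-379-3p (1 count in mOC and 7 in pOC), and for the others a difference was not detectable at this depth.

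A hairpin yields a 5p and a 3p arm, and often most copies of a single arm are kept. Some hairpins of the array show differing arm use, as RefSeq sequences of GRCm38.p6 with both mature arms in capitals, the 5p arm first. Hairpins that favour the 5p arm in both libraries are not among those shown.
Mir369: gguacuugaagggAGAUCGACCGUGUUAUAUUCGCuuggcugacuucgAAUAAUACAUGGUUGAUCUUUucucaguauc
Mir409: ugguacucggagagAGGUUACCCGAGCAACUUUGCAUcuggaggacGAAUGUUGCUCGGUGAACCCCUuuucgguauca
Mir382: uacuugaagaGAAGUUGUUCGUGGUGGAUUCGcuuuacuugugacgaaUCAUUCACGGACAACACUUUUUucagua

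Mir369 gave its 3p arm almost exclusively, with 1818 of 1818 counts in mOC and 3396 of 3397 in pOC. Mir409 also favoured the 3p arm, with 81.5% of its counts in mOC (68.6 to 90.7%) and 88.1% in pOC (82.2 to 92.6%). Mir382 gave both arms in like amounts, 51.5% 3p in mOC (33.5 to 69.2%) and 40.3% in pOC (29.2 to 52.1%). Of 9 hairpins with both arms listed and at least 50 counts, 6 favoured the 3p arm in both libraries and 2, Mir379 and Mir411, the 5p arm. The 3p share of Mir379 was 3.45% in mOC and 6.36% in pOC. The leading arm was the same in mOC and pOC for 8 of the 9, and the intervals of mOC and pOC overlapped for all 9. The choice of arm differed between hairpins, and between mOC and pOC no difference beyond counting error was detectable.

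**Figure D4:**
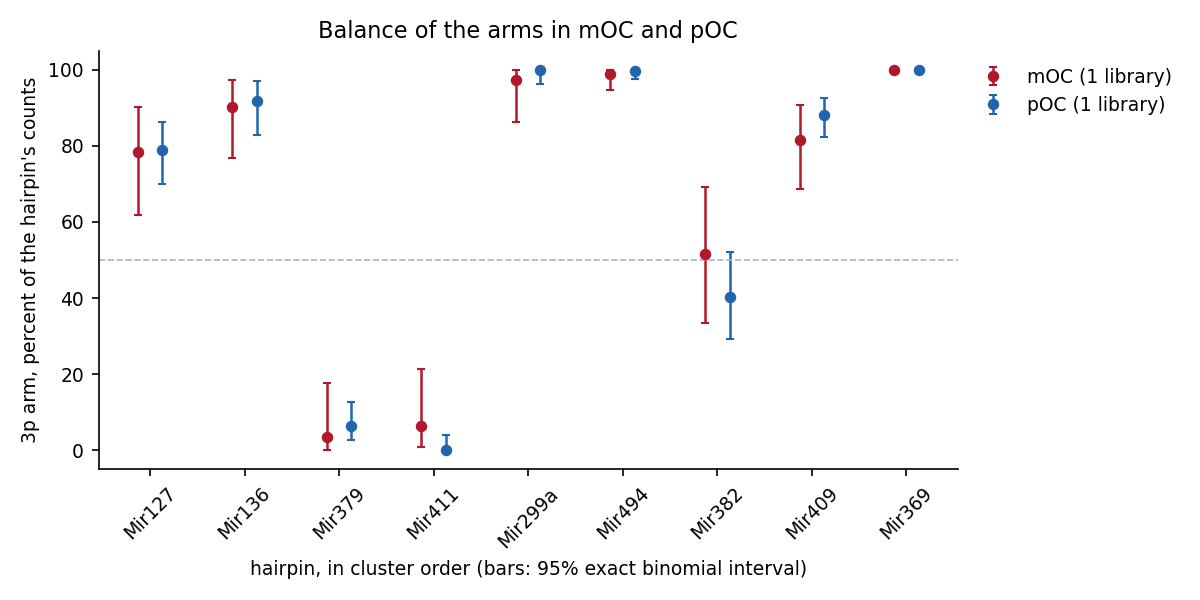
Share of the 3p arm in the counts of each hairpin, in percent, with 95% exact binomial intervals, for the 9 hairpins with at least 50 counts, in cluster order, with mOC in red and pOC in blue. The shares are near 100 for Mir369 and near 0 for Mir379 and Mir411, and the points lie farthest apart for Mir382, at 51.5 in mOC and 40.3 in pOC with overlapping intervals.

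The authors also set both stages against the library headed R. Both comparisons share R. Since its counts were left out, the authors' fold changes are given side by side and have no interval. In the authors' deposited table of mOC over R, the median log2 fold change of the 25 members was -1.06, beside 0.01 for all 560 miRNAs with that minimum. At least 2-fold lower in mOC than in R in the authors' deposited table were 14 of 25, against 11.1% of the 560, and 0 were 2-fold higher, against 12.1%. A value below 0 in the authors' deposited table of mOC over R was found for 23 of 25, against 49.5% of the 560. In the authors' deposited table of pOC over R, the median was 0.85, beside 0.10 for the 560. At least 2-fold higher in pOC than in R in the authors' deposited table were 8 of 25, against 14.8% of the 560, and 0 were 2-fold lower, against 7.68%. A value above 0 for pOC over R in the authors' deposited table was found for 21 of 25, against 54.3% of the 560. The 25 members thus lay mostly under R in mOC and mostly above it in pOC. The minimum takes in the counts of mOC and pOC but not those of R, and can be met through pOC alone. It therefore favours members high in pOC, although it was set alike for the 560.

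miR-412-5p had a log2 fold change of -1.45 for mOC over R and of 1.17 for pOC over R in the authors' deposited table. For miR-409-3p the authors' deposited table gave -1.50 for mOC and 0.65 for pOC, for miR-379-5p -1.34 and 0.95, and for miR-381-3p -1.32 and 0.63, in the same order. miR-369-3p stood closer to R on both sides in the authors' deposited table, at -0.99 for mOC and 0.33 for pOC. 2 of the 12 abundant members were lower than R in pOC as well in the authors' deposited table: miR-410-3p (-1.30 for mOC and -0.21 for pOC) and miR-136-3p (-1.29 and -0.03). miR-493-5p differed from the rest in the opposite way, at -0.41 for mOC and 2.0 for pOC in the authors' deposited table. Over the 12, the authors' deposited table placed 12 under R in mOC and 10 above R in pOC, a tally that the selection through pOC counts favours.

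**Figure D5:**
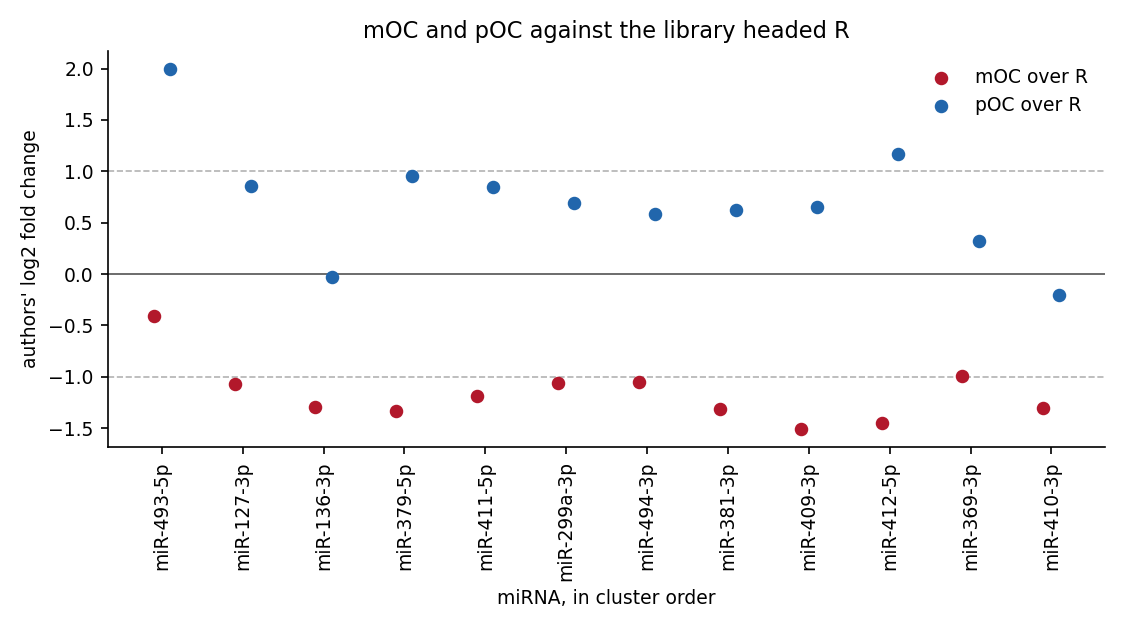
The authors' log2 fold change of mOC (red) and of pOC (blue) over the library headed R for the 12 members with at least 50 counts in 1 library, in cluster order. Dashed lines mark 2-fold differences. All red points lie below 0, from -1.50 to -0.41, and 10 of 12 blue points lie above it.

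The authors listed a miRNA as higher or lower where it differed at least 2-fold with an unadjusted p-value under 0.05. How that p-value was obtained from single libraries is not given in the labels. The authors' deposited table of pOC over mOC listed 21 of the 48 members as higher in pOC, against 7.9% of all 899, and 0 as lower, against 5.67%. These 21 were 43.8% of the members and 29.6% of the 71 miRNAs on that list. It rests on the same pOC and mOC libraries as the ratios given above, so it is not separate evidence. The authors' deposited table listed 14 members as lower in mOC than in R, against 6.23% of all 899, and 0 as higher, against 5.78%. These were 29.2% of the members and 14 of the 56 miRNAs on that list. Higher in pOC than in R in the authors' deposited table were 7 members, against 6.56% of all 899, and 0 were listed as lower, against 4.12%. These were 14.6% of the members and 11.9% of that list. Apart from miR-493-5p and miR-412-5p, the members on that list had 7 to 46 counts in pOC.

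Among markers of other sources that the cultures could hold, none with at least 10 counts was 2-fold higher in mOC, and some were 2-fold lower. Only the myeloid list held miRNAs 2-fold higher in mOC. The counts of every list are to be read against the 15.2% lower and 10.2% higher in mOC among all 560. Lists of 3 to 5 miRNAs allow little reading. Of 12 stromal miRNAs, 10 had at least 10 counts, 6 of these were 2-fold lower in mOC and 0 higher, with a median log2 ratio of -1.18. Their summed level was 1672 CPM in mOC and 1778 CPM in pOC. Against R, the medians of the stromal list were -0.63 for mOC and 0.62 for pOC in the authors' deposited table, and those of the erythroid list -1.21 and 0.50. For the other lists the authors' deposited table gave medians of -0.84 for mOC and -1.61 for pOC over R (myeloid), -0.57 and 0.20 (liver or serum), -1.61 and -0.12 (muscle), and 1.27 and 0.84 (neural). miR-143-5p was at 0 in mOC and miR-214-5p at 0 in pOC. Of 5 erythroid miRNAs, 4 were 2-fold lower in mOC, with a median of -1.59 and a sum of 299 CPM in mOC and 842 CPM in pOC. Of 5 muscle miRNAs 2 were 2-fold lower, with a median of -0.98 and a sum of 18.4 CPM in mOC and 34.3 CPM in pOC. Of 3 liver or serum miRNAs 1 was 2-fold lower, with a median of -0.73 and a sum of 952 CPM in mOC and 2768 CPM in pOC. Of the 4 myeloid miRNAs 2 were 2-fold higher in mOC and 0 lower, with a median of 1.17. The 4 neural miRNAs listed stayed within 2-fold, with a median of 0.27 and a sum of 385 CPM in mOC and 511 CPM in pOC, and none was at 0. The part of these sources in the cluster's difference was not tested. The libraries are single, so the culture, the sequenced fraction and the stage cannot be told apart.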

How the data were processed

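The authors deposited 9 tables of 899 miRNAs or subsets of them. Per the file headers, the authors gave raw read counts per mature miRNA, whole numbers with a different total per library. Per the file headers the authors also gave normalised counts, treated as a score: the raw count over 1 constant per library (5139860 for mOC, 4803435 for pOC), times 1000000. The remaining deposited columns used are the authors' log2 fold change and unadjusted p-value. The submitters' processing notes name FastQC, HISAT2, StringTie and GRCm38, without versions or roles. Their fold changes are not plain ratios of these normalised counts: for pOC over mOC they lie 0.26 higher on the log2 scale in the median. Trimming, the miRNA annotation and the handling of reads with several matches: not given in the sources used here.

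Columns POC and OC were matched by name to pOC and mOC. R matched no sample, so its columns were not used. Of 36 per-sample columns 32 were left out, 12 of them headed R and the others repeats of the same libraries. Counts were scaled to library totals, and 1 count was added in proportion to library size (the pseudocount). Fold intervals are exact Clopper-Pearson intervals (95%) of both counts, in SciPy 1.17.1, and cover counting error only, because PCR copies are not told apart from separate molecules. A call needed a 2-fold difference and 10 counts summed over mOC and pOC. This minimum, and that of 50 counts in 1 library for named members, can be met through pOC alone, so the members that passed are not all members. With 1 library a group no test was run, and the edgeR test of the usual design was not possible. TMM factors of edgeR 4.0.16 and size factors of DESeq2 1.42.0 served as alternative scalings. Hairpin positions and sequences are those of RefSeq (GRCm38.p6, 44 of 48 mature entries matched), and gene overlaps those of GENCODE M21, both of the build the submitters name.

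Members with at least 50 counts in 1 library were named in full. The members, marker lists and rules were chosen with earlier results of these data known.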

Additional observations from a re-analysis of the deposited data

Results flagged for a closer look

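The members' median lay under the library headed R in mOC and above it in pOC. In the authors' deposited table, 19 of the 25 members with at least 10 counts were below R in mOC and above R in pOC. For both conditions together no share over all 560 miRNAs was worked out. How common the joint pattern is among them is therefore not known. Taken singly, the authors' deposited table placed 49.5% of the 560 below R for mOC and 54.3% above R for pOC. In the authors' deposited table the median log2 fold change over R of the 25 members with at least 10 counts was -1.06 in mOC and 0.85 in pOC. With 1 library each this difference was not tested and both values share R. The minimum leaves out R and can be met through pOC alone, which favours members high in pOC.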

How the results depend on the processing

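The number of members 2-fold lower in mOC (20 of 25) was 16 to 21 under the 4 other scalings and a pseudocount of 0.5. The lowest came from the authors' constants, which raise log2 ratios by 0.27 apart from the pseudocount; miR-369-3p, miR-410-3p, miR-136-3p and miR-382-3p were then no longer 2-fold lower, and the summed counts gave a log2 ratio of -1.17, against -1.44 with totals. It was 30 of 48 without a count minimum, 12 of 12 with a minimum of 50 counts in 1 library (which 8 of them met in pOC alone, so that this minimum favours lower values in mOC), and 25 of 25 at 1.5-fold. Without a minimum 2 of 48 were 2-fold higher, against 0, both on 2 counts in mOC and 0 in pOC. The members added as lower without a minimum had 0 or 1 count in mOC and 1 to 7 in pOC. Calls on so few counts depend on the pseudocount. The share of 15.2% lower among all 560 miRNAs holds for 2-fold, 10 counts and library totals. No such share was worked out for the other settings, so their counts have none to be read against. The summed counts without miR-369-3p gave -1.80, an alternative chosen after seeing the data. The median log2 ratio ran from -1.87 to -1.35 over all its alternatives. The median over R in the authors' deposited table was -1.02 without a minimum and -1.24 with 50 counts for mOC, and 0.83 and 0.67 for pOC. With a minimum of 200 counts 3 of 3 hairpins had the same leading arm, against 8 of 9. No paired analysis was possible because each group has 1 library. For the same reason no library could be left out. Depth limits the 23 members under 10 counts.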
